A study of Mus musculus with 12 samples.

Results

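The desmosomal cadherins are the adhesion receptors of the desmosome, the junction that ties keratinocytes to each other. All 9 mouse genes of the family, Dsg1a, Dsg1b, Dsg1c, Dsg2, Dsg3 and Dsg4 for the desmogleins and Dsc1, Dsc2 and Dsc3 for the desmocollins, were on the array, among 34763 gene names. They were picked out by gene name, and the family was chosen with earlier results of these data known. A gene had between 1 and 3 probes, 15 in all, and was represented by its brightest probe, judged by the mean over all 12 arrays. Desmogleins and desmocollins span the membrane and bind those of the neighbouring cell. Inside the cell plakoglobin (Jup), the plakophilins (Pkp1 to Pkp4) and desmoplakin (Dsp) link them to the keratin filaments. In skin the make-up of the desmosome changes with position: DSG3 and DSC3 are known from the basal layer, DSG1 and DSC1 from the suprabasal layers, DSG2 and DSC2 are the widely expressed isoforms found also outside stratified epithelia, and DSG4 is known from the hair shaft.

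Gene expression was measured on 12 one-colour (Cy3) arrays, each holding 1 sample, so that every group is 1 array. Cells were sorted into hair follicle stem cells (HFSCs, CD34 high, ITGA6 high, SCA1 negative), interfollicular epidermis (IFE, ITGA6 high, SCA1 high) and total epidermal cells. The question of the series is how the stem cells of the hair follicle differ between aged, young and Col17a1-deleted skin. COL17A1 is a collagen of the hemidesmosome, which fixes basal keratinocytes to the basement membrane as the desmosome fixes them to each other. The groups were aged wild-type mice (at least 22 months) and young wild-type mice (8 weeks), both C57BL/6, each with HFSCs, plucked HFSCs, total epidermis and IFE. The remaining groups were HFSCs and plucked HFSCs of Col17a1 conditional knockout (cKO) mice, whose strain the labels do not give, and of wild-type C57BL/6 control mice, both 12 weeks old. In the cKO the deletion runs from the K14 promoter, active in the basal keratinocytes of epidermis and follicle, and not in HFSCs alone. The cKO and control mice had both received 2 mg of tamoxifen on 5 days by intraperitoneal injection. Plucked HFSCs came from skin depilated by hand 3 days earlier. The labels do not say whether samples came from separate animals, so a p-value here speaks only for the variation among these arrays, part or all of which may be technical.

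The family lies in 1 cluster on chromosome 18. On the mm9 build of the array files the 15 probes lie within chr18:20122029-20761236, a stretch of 639 kb, with the 3 desmocollins on the minus strand and the 6 desmogleins on the plus strand. In order along the chromosome, the probes used were those of Dsc3 (chr18:20124142-20124201), Dsc2 (chr18:20189299-20189358) and Dsc1 (chr18:20243332-20243391). They were followed by Dsg1c (chr18:20442142-20442201), Dsg1a (chr18:20501268-20501327) and Dsg1b (chr18:20568117-20568176). Last came Dsg4 (chr18:20630260-20630319), Dsg3 (chr18:20698528-20698587) and Dsg2 (chr18:20761177-20761236). Each of these 9 probes is annotated in the files to the RefSeq transcript of its gene; whether it lies in coding sequence or in a UTR is not given in the sources used here. Dsg1a, Dsg1b and Dsg1c are near-identical copies. The files list the Dsg1b transcript among the targets of the Dsg1c probe too, so signal may be shared within this trio and values of a single copy are uncertain.

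Throughout, a level is the log2 of the processed spot intensity minus the 75th percentile of its array, so that 0 is the 75th percentile and 1 unit is a 2-fold step. Levels are compared between arrays within a gene, not between genes, since probes differ in efficiency. Where groups of arrays are said not to overlap, the share of all genes that separate likewise was not counted, so this only describes the values. Of the sort markers, Cd34 and Ly6a followed the gates, and Itga6 was lower in HFSCs than in the epidermal samples. Cd34 lay between 3.62 and 6.68 on the 8 HFSC arrays and between -5.98 and 0.76 on the 4 epidermis arrays, and Ly6a, which encodes SCA1, between 3.33 and 4.37 on the epidermis arrays and between -3.69 and 0.30 on the HFSC arrays. Itga6, though both sorted populations were gated as ITGA6 high, stood at 5.77 in aged and 5.75 in young IFE and at 5.31 in aged and 5.21 in young total epidermis, above all 8 HFSC arrays, which lay between 4.19 and 4.54. Col17a1, the deleted gene, differed by -0.31 between cKO and control HFSCs and stood at 5.79 in plucked cKO against 6.22 in plucked control HFSCs; the labels do not say which part was deleted, so its probe does not check the genotype. The share of spots well above background, the scanner software's test of detection, ran from 49.71% in unplucked cKO HFSCs to 64.97% in young total epidermis. The median correlation with the other arrays was lowest for unplucked control (0.862) and unplucked cKO HFSCs (0.870) and lay between 0.882 and 0.909 on the others. Aged and young arrays shared 1 slide, with age along its rows and population along its columns. The cKO and control arrays shared another, with control in columns 1 and 2 and cKO in columns 3 and 4. Age cannot be told apart from slide row, nor population from slide column. On the other slide the deletion cannot be told apart from slide column.

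**Figure D1:**
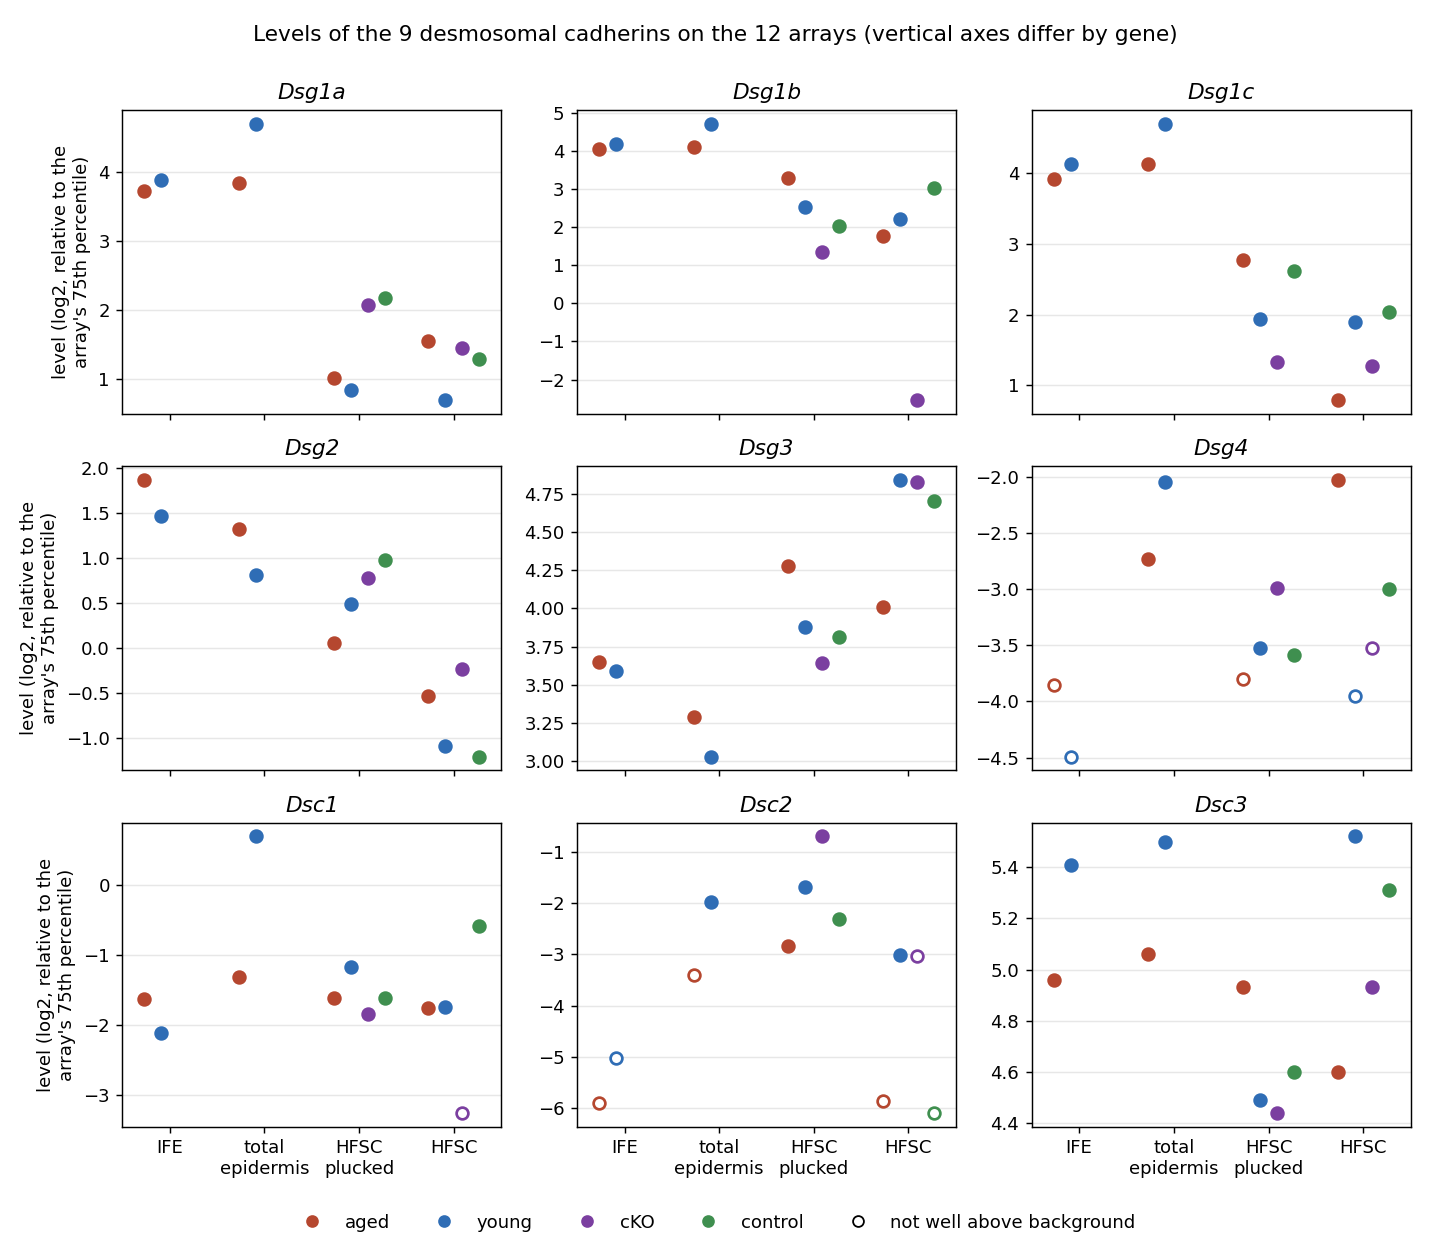
Level of each desmosomal cadherin on each of the 12 arrays (vertical axis, log2 relative to the array's 75th percentile; horizontal axis, cell population). Each point is 1 array, coloured by mouse type, and open points were not well above background. Dsg1a, Dsg1b and Dsg1c lie higher on all 4 epidermis arrays than on any HFSC array, Dsg3 lies lower in IFE and total epidermis than in any unplucked HFSC array, and Dsc3 spans only 1.08 units over all 12 arrays.

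The first comparison asks how the cadherin set of the follicle stem cells differs from that of the epidermis between the follicles. In IFE 3 of the 9 genes rose against HFSCs (Dsg1b, Dsg1c and Dsg2) and none fell, and in total epidermis 4 rose (Dsg1a, Dsg1b, Dsg1c and Dsg2) and none fell. Of all genes tested, 4.73% passed the same threshold (limma, adjusted p under 0.05 over all 23961 genes) in IFE and 3.89% in total epidermis. Their sizes ran from 1.88 to 3.14 on the log2 scale, or 3.69-fold to 8.83-fold. The median difference over the 9 members was 0.12 in IFE and 1.73 in total epidermis, where all genes tested had medians of 0.09 and 0.07. The 1.73 is the value of Dsc2, which was well above background on 1 total epidermis and 1 HFSC array. Over alternatives that value ran from 0.26 to 1.75. Among the members above it were the 3 copies of Dsg1, whose signal may be shared, so the median does not describe a rise of the whole family. At an unadjusted p under 0.05 there were 4 members in IFE, Dsg2 and the 3 copies of Dsg1, all higher. In total epidermis there were 6, the same 4 and Dsc2 higher and Dsg3 lower, and of all genes tested 20.1% and 20.8% were found at that level. In bulk samples, fewer cells of a type and less RNA per cell cannot be told apart.

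DSG1 is the desmoglein of the differentiating layers and the target of the autoantibodies of pemphigus foliaceus and of the staphylococcal exfoliative toxins. Dsg1a stood at 3.72 in aged IFE and 3.88 in young IFE and at 3.84 in aged and 4.70 in young total epidermis, against 1.56 in aged and 0.70 in young HFSCs. Every epidermis array was above every HFSC array, and the gap was wider in the young pairs. The difference was 3.14 ± 0.48 (SE, 2 pairs) in total epidermis (8.83-fold, adjusted p = 0.0459). For IFE it was 2.67 ± 0.48 (6.36-fold, higher in 2 of 2 pairs), which did not pass (adjusted p = 0.0572). Over 7 alternatives with a test, the IFE value ran from an adjusted p of 0.018 to 0.0987 and passed in 3.

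Dsg1b stood at 4.04 in aged and 4.18 in young IFE and at 4.10 in aged and 4.71 in young total epidermis, against 1.76 in aged and 2.21 in young HFSCs. The epidermis arrays lay close together and did not overlap with the HFSC arrays. Dsg1b rose 4.35-fold in IFE (2.12 ± 0.28, adjusted p = 0.0317) and 5.36-fold in total epidermis (2.42 ± 0.28, adjusted p = 0.0302), in 2 of 2 pairs each.

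Dsg1c stood at 3.92 in aged and 4.13 in young IFE and at 4.13 in aged and 4.70 in young total epidermis, against 0.79 in aged and 1.90 in young HFSCs. The groups did not overlap, and the aged HFSC array was the lowest of the 12. Dsg1c rose 6.4-fold in IFE (2.68 ± 0.34, adjusted p = 0.0279) and 8.39-fold in total epidermis (3.07 ± 0.34, adjusted p = 0.028). All 3 copies of Dsg1 thus lay higher in epidermis, by 2.12 to 3.14 units. The copies are near-identical and the Dsg1c probe also lists the Dsg1b transcript, so these cannot be taken as 3 independent measurements.

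DSG2 is the desmoglein of simple epithelia and heart, and in skin it is known from basal cells and the hair follicle. Dsg2 stood at 1.87 in aged and 1.47 in young IFE and at 1.33 in aged and 0.81 in young total epidermis, against -0.54 in aged and -1.09 in young HFSCs. Every epidermis array was above both HFSC arrays, and IFE was above total epidermis at both ages. Dsg2 rose 5.6-fold in IFE (2.48 ± 0.27, adjusted p = 0.0195) and 3.69-fold in total epidermis (1.88 ± 0.27, adjusted p = 0.0403). A second Dsg2 probe, at chr18:20737628-20737687 and also on the RefSeq transcript, stood at 1.69 in aged and 1.56 in young IFE against -1.58 in aged and -2.34 in young HFSCs. Its difference was larger, at 3.58 ± 0.30 in IFE (adjusted p = 0.013) and 3.07 ± 0.30 in total epidermis (adjusted p = 0.0243). The remaining Dsg2 probe was not well above background on any of the 12 arrays.

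These calls rest on 2 pairs of arrays and on the set of genes tested. When dim genes were tested as well, with no filter on detection, Dsg2 in IFE remained past the threshold (adjusted p = 0.0431) while Dsg1b and Dsg1c did not (0.0693 and 0.0528), and in total epidermis the 4 genes stood at adjusted p of 0.0782 (Dsg1a), 0.0624 (Dsg1b), 0.0526 (Dsg1c) and 0.0898 (Dsg2), with the same differences. Dsg1a in total epidermis also missed the threshold under quantile scaling (adjusted p = 0.051).

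DSG3 is the main desmoglein of the basal layer and the antigen of pemphigus vulgaris. Dsg3 ran the other way: it stood at 3.65 in aged and 3.59 in young IFE and at 3.29 in aged and 3.03 in young total epidermis, against 4.01 in aged and 4.84 in young HFSCs. Both HFSC arrays were above the 4 epidermis arrays. The difference was -0.80 ± 0.38 in IFE (95% interval -1.79 to 0.19, adjusted p = 0.335) and -1.27 ± 0.38 in total epidermis (95% interval -2.26 to -0.28, adjusted p = 0.164), neither past the threshold. A second Dsg3 probe on the same transcript gave -0.52 ± 0.26 and -0.82 ± 0.26, while the last, annotated to another transcript and well above background on 6 of 12 arrays, gave 0.21 ± 0.70 and -0.55 ± 0.70.

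DSC3, the basal desmocollin, pairs with DSG3 in the lower layers. Dsc3 stood at 4.96 in aged and 5.41 in young IFE and at 5.06 in aged and 5.50 in young total epidermis, against 4.60 in aged and 5.52 in young HFSCs. The groups overlapped, and age separated the arrays more than population did. The difference was 0.12 ± 0.29 in IFE (95% interval -0.64 to 0.89) and 0.21 ± 0.29 in total epidermis (95% interval -0.55 to 0.98), and a second probe gave 0.16 ± 0.29 and 0.42 ± 0.29.

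Of the 3 remaining genes, Dsc2 and Dsg4 were not well above background on several arrays. DSC1 is the desmocollin of the upper layers. Dsc1 stood at -1.63 in aged and -2.11 in young IFE and at -1.31 in aged and 0.70 in young total epidermis, against -1.76 in aged and -1.74 in young HFSCs. Only the young total epidermis array stood out, 5.43-fold above young HFSCs, and the differences were -0.12 ± 0.67 in IFE (adjusted p = 0.946) and 1.44 ± 0.67 in total epidermis (adjusted p = 0.316). Dsc2 was well above background on 6 of 12 arrays, of which 2, young total epidermis at -1.97 and young HFSCs at -3.01, fall in this comparison. It was not well above background in IFE at either age; young IFE was at least 1.55-fold below young HFSCs. Its fitted differences were -1.02 ± 0.54 in IFE (adjusted p = 0.381) and 1.73 ± 0.54 in total epidermis (adjusted p = 0.175). Dsg4 was well above background on 7 of 12 arrays, including both total epidermis arrays (-2.73 aged and -2.05 young) and neither IFE array. Aged IFE was at least 3.51-fold below aged HFSCs, which stood at -2.03, whereas young HFSCs were not well above background. A second Dsg4 probe, well above background on 6 arrays, did not give the same order. It was well above background in IFE, at -3.02 in aged and -2.75 in young cells, against -3.98 in aged and -3.08 in young HFSCs. In aged HFSCs it was not well above background.

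**Figure D2:**
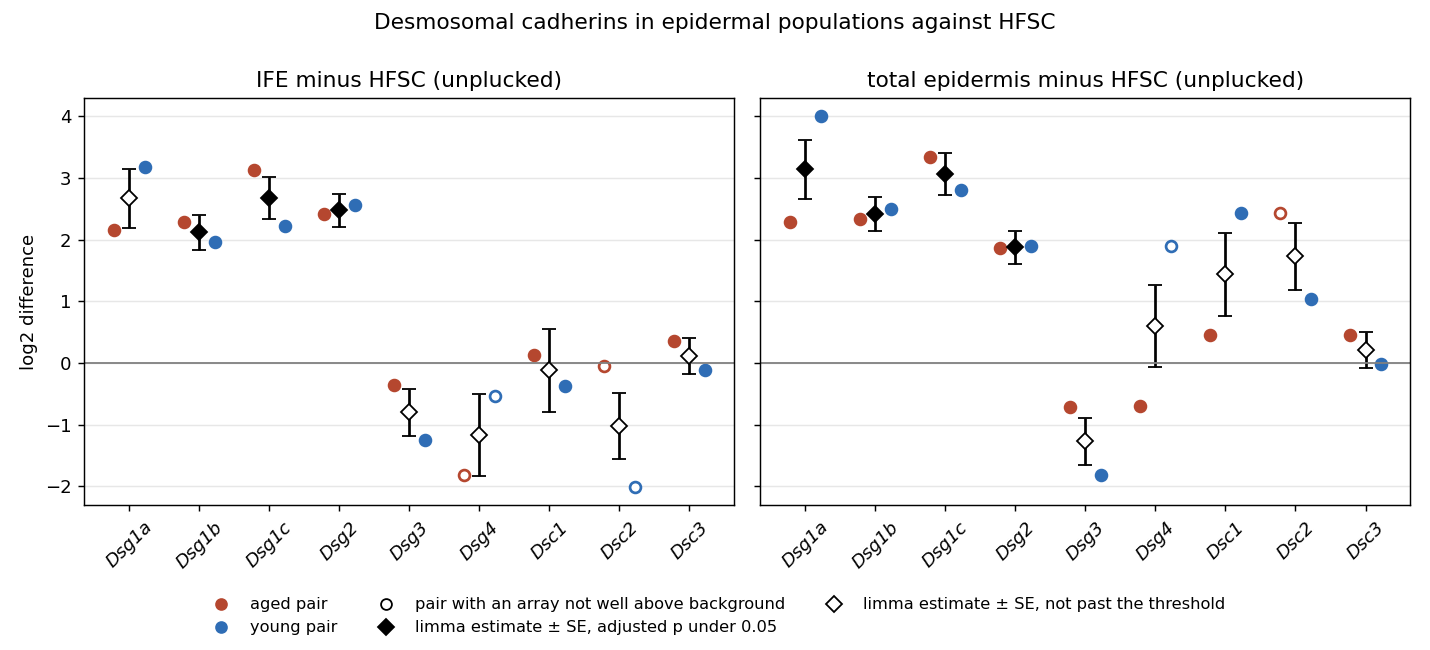
Difference in level between epidermal populations and unplucked HFSCs for each desmosomal cadherin (log2, vertical axis), IFE on the left and total epidermis on the right. Circles are the aged and young pairs of arrays, open where an array was not well above background, and diamonds are limma estimates with their SE, filled at an adjusted p under 0.05. The Dsg1 copies and Dsg2 lie above 0 in both pairs and Dsg3 below 0 in both pairs.

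Between IFE and total epidermis no member passed the threshold, and no gene did (0% of 23961). At an unadjusted p under 0.05 there were 2 members, Dsg4 (at least 2.55-fold) and Dsc2 (at least 2.17-fold), where 4.08% of all genes were found. Both were lower in IFE on the probes used, which were not well above background there. The second Dsg4 probe was well above background in aged and young IFE, though not in aged total epidermis, and gave 0.24 ± 0.35. In 2 of 2 pairs each, IFE was below total epidermis for the Dsg1 copies (-0.47 ± 0.48 for Dsg1a, -0.30 ± 0.28 for Dsg1b and -0.39 ± 0.34 for Dsg1c) and above it for Dsg2 (0.60 ± 0.27) and Dsg3 (0.47 ± 0.38), all with intervals that include 0.

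Markers of other cells moved with these comparisons. Of 4 T cell markers 2, Cd3e and Cd3g, rose in total epidermis and none in IFE, with Cd3e at 2.25 in aged and 1.66 in young total epidermis against -0.48 in aged and -1.32 in young HFSCs, and the mean level of the 4 T cell markers on the array was 1.29 in aged and 0.55 in young total epidermis against -1.73 in aged and -2.15 in young HFSCs. In IFE the same mean was -0.81 in aged and -1.17 in young cells, and Cd3g was not well above background. All 5 Langerhans and myeloid markers tested were also higher in total epidermis than in HFSCs, 4 of them at an unadjusted p under 0.05 and none past the threshold, with a list median of 2.23 there and -0.07 in IFE. The mean level of the 6 such markers was -0.46 in aged and -1.16 in young total epidermis, against -2.46 in aged and -2.96 in young HFSCs. Of 10 suprabasal markers tested, Krt1 rose (2.12 ± 0.29 in IFE, adjusted p = 0.0337, and 2.16 ± 0.29 in total epidermis, adjusted p = 0.0383) and Calml3 fell by 5.67 in IFE and 2.74 in total epidermis, with list medians of -0.91 and 0.16. Of 8 HFSC markers, among them the sort marker Cd34, 6 fell in IFE and 4 in total epidermis, with list medians of -6.30 and -3.72. The part of these cells in the cadherin differences was not tested.

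The partners of the cadherins were set beside them from lists of known genes. Of the 8 desmosomal plaque genes 7 were tested. In IFE Pkp1, whose loss causes skin fragility in humans, rose 3.13-fold (1.65 ± 0.27, adjusted p = 0.0497); in total epidermis it gave 1.59 ± 0.27 and did not pass (adjusted p = 0.0579). Pkp1 stood at 5.87 in aged and 5.73 in young IFE, against 4.06 in aged and 4.25 in young HFSCs. Desmoplakin and plakoglobin did not pass, at -0.30 ± 0.29 for Dsp and 0.40 ± 0.32 for Jup in IFE. The list median was 0.40 in IFE and 0.36 in total epidermis, against 0.09 and 0.07 for all genes. Of 9 transcription factors that have been reported at desmosomal cadherin genes, Foxn1 rose in IFE (3.23 ± 0.32, adjusted p = 0.017) and total epidermis (3.11 ± 0.32, adjusted p = 0.0256). Hoxc13, a homeobox gene of the hair follicle, fell in both. It stood at -0.20 in aged and 0.38 in young HFSCs and was not well above background in IFE, where it was at least 14.9-fold lower (adjusted p = 0.0117), nor in total epidermis, where it was at least 17.1-fold lower (adjusted p = 0.0234). Foxn1 was well above background on both IFE and both total epidermis arrays and on 1 of the 2 HFSC arrays. The other 7 did not pass in either population.

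Plucking, which takes out the hair shaft and sends the follicle into growth, was compared in 4 pairs of HFSC arrays. By limma no cadherin passed the threshold 3 days after plucking, where 0.499% of 25428 genes did. At an unadjusted p under 0.05 there were 2, Dsg2 and Dsc2, both higher after plucking, where 17.6% of all genes were found. Dsg3 and Dsc3, the basal pair, were lower after plucking in the young, cKO and control pairs and higher in the aged pair. The median difference of the 9 genes was 0.28, against -0.06 for all genes tested.

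Dsg2 stood at 0.05 in aged, 0.49 in young, 0.78 in cKO and 0.98 in control plucked HFSCs, against -0.54 in aged, -1.09 in young, -0.23 in cKO and -1.21 in control unplucked HFSCs. All plucked arrays were above all unplucked arrays. The difference was 1.35 ± 0.34 (2.54-fold, higher in 4 of 4 pairs, adjusted p = 0.156; 0.0654 to 0.505 over 16 alternatives). Without the unplucked control and cKO arrays, which had the lowest median correlations with the other arrays, it was 1.09 (adjusted p = 0.505). That fit takes the plucking difference from aged and young mice alone, so it equals the estimate within their slide. Within the slide of cKO and control mice the difference was 1.60. The second Dsg2 probe gave 2.20 ± 0.47 (adjusted p = 0.115), with -0.35 in aged, 0.44 in young, -1.20 in cKO and -0.98 in control plucked HFSCs against -1.58 in aged, -2.34 in young, -4.64 in cKO and -2.32 in control unplucked HFSCs. On that probe too the groups did not overlap, and the lowest value, in unplucked cKO HFSCs, was not well above background.

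Dsc2 stood at -2.84 in aged, -1.69 in young, -0.70 in cKO and -2.32 in control plucked HFSCs, against -5.85 in aged, -3.01 in young, -3.03 in cKO and -6.09 in control unplucked HFSCs. It was well above background on all 4 plucked arrays and, unplucked, in young HFSCs alone, so the other unplucked values are uncertain. The fitted difference was 2.61 ± 0.45 (adjusted p = 0.086; 0.0694 to 0.343 over 14 alternatives). Pair by pair, plucked HFSCs were 2.49-fold higher in young, at least 1.87-fold higher in aged, at least 4.95-fold higher in cKO and at least 6.72-fold higher in control mice. Under normexp background correction, with an offset of 50, the fitted difference was 0.70 (adjusted p = 0.0918). Without the unplucked control and cKO arrays it was 2.16 (adjusted p = 0.343), again the estimate within the slide of aged and young mice. Within the slide of cKO and control mice it was 3.05.

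Dsg3 stood at 4.28 in aged, 3.88 in young, 3.64 in cKO and 3.81 in control plucked HFSCs, against 4.01 in aged, 4.84 in young, 4.83 in cKO and 4.70 in control unplucked HFSCs. The groups overlapped through the aged pair, in which plucked HFSCs were higher by 0.27, while the other pairs gave -0.96 (young), -1.19 (cKO) and -0.89 (control). The difference was -0.69 ± 0.33 (adjusted p = 0.355), and -1.02 without the aged pair (adjusted p = 0.26). Dsc3 had the same sign as Dsg3 in each pair, with 4.93 in aged, 4.49 in young, 4.44 in cKO and 4.60 in control plucked HFSCs, against 4.60 in aged, 5.52 in young, 4.93 in cKO and 5.31 in control unplucked HFSCs. Its difference was -0.47 ± 0.31 (adjusted p = 0.478), and -0.74 without the aged pair (adjusted p = 0.357).

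The Dsg1 copies scattered among the HFSC arrays. Dsg1a was higher after plucking in 3 of 4 pairs (0.28 ± 0.32) and Dsg1c in 4 of 4 (0.67 ± 0.41), though by only 0.04 in the young and 0.06 in the cKO pair. Dsg1b gave 1.18 ± 0.81, with the cKO pair at 1.35 plucked against -2.54 unplucked; without that pair it was 0.28. Dsc1 gave 0.28 ± 0.44, and -0.10 without the cKO pair, in which the unplucked array was not well above background. Dsg4 gave -0.35 ± 0.46, and 0.12 without the aged pair, in which the plucked array was not well above background. Whether the plucking difference of the cKO and control mice differed from that of aged and young mice was tested as an interaction: no member and no gene passed (0%), and at an unadjusted p under 0.05 there was no member, where 5.67% of all genes were found.

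**Figure D3:**
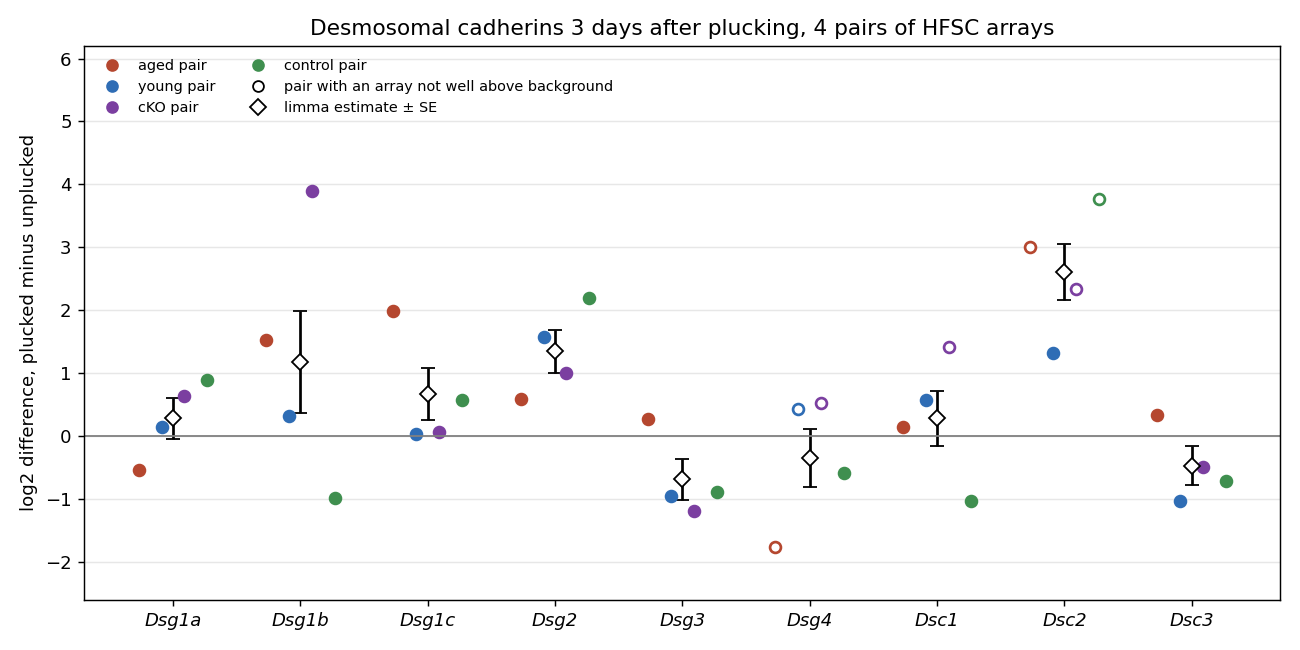
Difference between plucked and unplucked HFSCs for each desmosomal cadherin (log2, vertical axis). Circles are the aged, young, cKO and control pairs of arrays, open where an array of the pair was not well above background, and diamonds are limma estimates with their SE, none past an adjusted p of 0.05. Dsg2 and Dsc2 lie above 0 in all 4 pairs, and Dsg3 and Dsc3 below 0 in all pairs but the aged.

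Among the plaque partners, Pkp1 was higher after plucking in 4 of 4 pairs (0.95 ± 0.29, adjusted p = 0.195), and Dsp (-0.94 ± 0.28, adjusted p = 0.194) and periplakin, Ppl (-0.89 ± 0.24, adjusted p = 0.161), were lower in 4 of 4. Evpl, of the same list, was lower in 4 of 4 too. None of the 7 tested passed. At an unadjusted p under 0.05, 1 was higher and 2 were lower, where 17.6% of all genes were found. The share of all genes with 1 direction in 4 of 4 pairs was not counted. Klf4, a factor of terminal differentiation, was lower in 4 of 4 pairs (-1.85 ± 0.24) and did not pass (adjusted p = 0.0577), and none of the 9 transcription factors did.

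Across the 12 arrays Dsg2 and Dsg3 ran in opposite directions, with Pearson's r of -0.81 over all arrays and -0.82 over the 8 HFSC arrays. All 4 unplucked HFSC arrays had Dsg2 below every other array, and 3 of them, young, cKO and control, had the 3 highest Dsg3 levels. Dsg3 was lowest in total epidermis, though Dsg2 was highest in IFE. Within the 8 HFSC arrays Dsg3 and Dsc3 ran together (r = 0.90), as did Dsg1b and Dsc1 (r = 0.90), both of which were lowest in unplucked cKO HFSCs. Arrays share slides, populations and the scaling to the 75th percentile, so these values are descriptions.

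**Figure D4:**
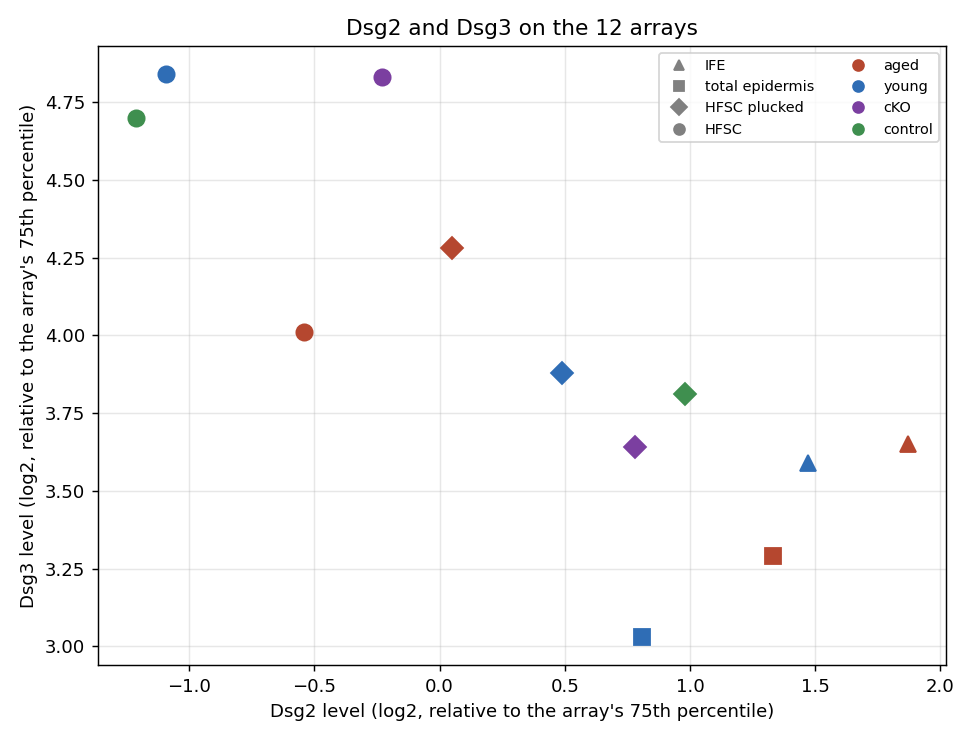
Level of Dsg2 (horizontal axis) against Dsg3 (vertical axis) on each of the 12 arrays, both log2 relative to the array's 75th percentile. Shapes mark the population and colours the mouse type. Unplucked HFSCs lie at the upper left, with Dsg2 between -1.21 and -0.23, and epidermis at the lower right, with Dsg2 between 0.81 and 1.87.

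The age comparison in HFSCs had 2 pairs, unplucked and plucked. No cadherin and no gene passed (0%), and at an unadjusted p under 0.05 there was 1 member, Dsc2, lower in aged cells, where 4.83% of all genes were found. Dsc2 stood at -5.85 in aged against -3.01 in young HFSCs and at -2.84 in aged against -1.69 in young plucked HFSCs. Of these arrays only that of aged unplucked HFSCs was not well above background for Dsc2, and aged HFSCs were at least 1.67-fold lower unplucked and 2.22-fold lower plucked (95% interval of the fitted difference -3.61 to -0.38, adjusted p = 0.932). For Dsg1b, Dsg1c, Dsg2, Dsg3, Dsg4 and Dsc3 the unplucked and plucked pairs pointed in opposite directions. Dsg1c, for example, gave -1.11 unplucked and 0.83 plucked. At least 2-fold apart were 3 cadherins between the unplucked arrays (Dsg4 higher, Dsg1c and Dsc2 lower in aged) and 1, Dsc2, between the plucked arrays, where 30.0% and 20.0% of all genes were. The 95% interval for Dsg3 was -1.41 to 0.97 and for Dsc3 -1.35 to 0.87.

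In the epidermis of aged mice, set against young, no member passed, nor did any gene (0%), and at an unadjusted p under 0.05 there was none of the 8 members tested, where 6.52% of all genes were found. All 3 Dsg1 copies were lower in aged cells in both total epidermis and IFE, with -0.51 ± 0.30 for Dsg1a, -0.38 ± 0.27 for Dsg1b and -0.39 ± 0.26 for Dsg1c. Dsc3 was lower too, at -0.45 ± 0.24, and Dsg2 was higher at 0.46 ± 0.24. For Dsg1a, Dsg1b and Dsg1c the IFE pair gave only -0.16, -0.15 and -0.21, against -0.86, -0.61 and -0.56 in total epidermis. Total epidermis and IFE may come from the same animals, so these pairs may not be independent. The widest difference between total epidermis arrays was that of Dsc1, at -1.31 in aged against 0.70 in young cells (4.05-fold lower), where IFE gave -1.63 in aged against -2.11 in young cells. Dsc2 was at least 2.72-fold lower in aged total epidermis. These were the 2 members at least 2-fold apart between the total epidermis arrays, where 12.1% of genes were, and there was none between the IFE arrays, where 12.1% were. A test of whether the age difference in epidermis differed from that in HFSCs found no member and no gene (0%), and no member at an unadjusted p under 0.05, where 5.33% of all genes were found.

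The comparison of cKO with control HFSCs also had 2 pairs. No cadherin and no gene passed (0%). At an unadjusted p under 0.05 there were 2 members, Dsg1b, lower in cKO, and Dsc2, higher in cKO, where 6.47% of all genes were found. Dsg1b stood at -2.54 in cKO against 3.02 in control HFSCs and at 1.35 in plucked cKO against 2.03 in plucked control HFSCs. The unplucked cKO array was by far the lowest of the 12, 47.3-fold below its control, whereas the plucked pair differed 1.61-fold. The fitted difference was -3.12 ± 1.15 (adjusted p = 0.752) and -0.68 without the unplucked pair. On the same array Dsg1a stood at 1.45 in cKO against 1.29 in control HFSCs, and Dsg1c, whose probe also lists the Dsg1b transcript, at 1.27 in cKO against 2.04 in control HFSCs. Dsc1 was at least 5.33-fold lower in unplucked cKO HFSCs, where it was not well above background, and 1.16-fold lower after plucking (fitted -1.44 ± 0.63, adjusted p = 0.773).

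Between the unplucked cKO and control arrays 38.5% of genes were at least 2-fold apart, with 2 members, Dsg1b and Dsc1, among them, and after plucking 23.6% were, with Dsc2 higher and Dsg1c lower in cKO. On the unplucked cKO array 6 of the 9 cadherins were well above background, against 8 on the control array, and over all spots the share well above background was 49.71% on the cKO array against 59.97% on the control array. The mean level of the 10 suprabasal markers was 2.09 in cKO against 2.80 in control HFSCs, with Krt1 at -0.56 in cKO against 1.33 in control HFSCs and Ivl not well above background in cKO. After plucking the same mean was 3.20 in cKO against 2.80 in control HFSCs, though Krt10, Krtdap and Calml3 were lower in cKO. Krt1 stood at 2.90 in plucked cKO against 2.56 in plucked control HFSCs, where Dsg1b and Dsc1 differed by -0.68 and -0.22. The part of these in the values of Dsg1b and Dsc1 was not tested.

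Dsc2 stood at -3.03 in cKO against -6.09 in control HFSCs, neither well above background, and at -0.70 in plucked cKO against -2.32 in plucked control HFSCs, a 3.07-fold difference (fitted 2.34 ± 0.64, adjusted p = 0.673). The cKO value was the higher in both pairs, but the direction in the unplucked pair is uncertain, since neither array detected Dsc2. Over 8 alternatives the fitted difference ran from 0.55 to 3.06. Dsg3 and Dsc3 were close in both pairs: Dsg3 stood at 4.83 in cKO against 4.70 in control HFSCs and at 3.64 in plucked cKO against 3.81 in plucked control HFSCs, with a 95% interval of -1.21 to 1.17, and Dsc3 gave -0.27 ± 0.44 with an interval of -1.38 to 0.84. Dsg2 was 0.38 ± 0.49 on the probe used and -1.27 ± 0.66 on the second probe, so that its direction depends on the probe. Dsg1c was lower in cKO in 2 of 2 pairs (-1.03 ± 0.58, adjusted p = 0.815).

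**Figure D5:**
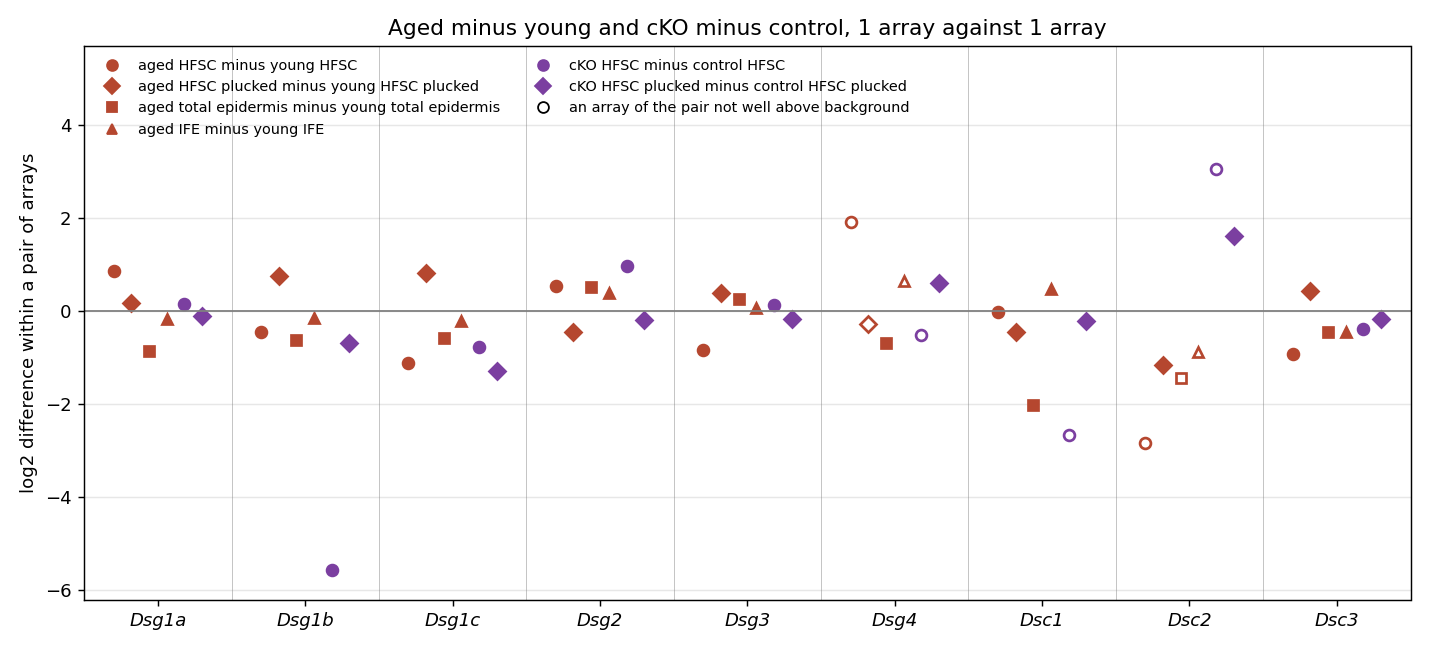
Difference within each pair of arrays for each desmosomal cadherin (log2, vertical axis), aged minus young in 4 populations and cKO minus control in 2. Each point sets 1 array against 1 array and has no replicate; open points hold an array not well above background. The lowest point is Dsg1b in unplucked cKO against control HFSCs, at -5.56.

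Control mice, which had received tamoxifen and were 12 weeks old, were also set against young mice of 8 weeks, for which no tamoxifen is given. Slide, treatment and age cannot be told apart here. No member and no gene passed (0%), and at an unadjusted p under 0.05 there was 1 member, Dsc2 (-1.86 ± 0.64, lower in control), where 8.73% of all genes were found. Dsc2 was not well above background in unplucked control HFSCs. The unplucked pair gave -3.08 and the plucked pair -0.63. Dsg3 and Dsc3 differed by -0.10 ± 0.47 and -0.05 ± 0.44.

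The genes whose levels followed each cadherin most closely over the 12 arrays were taken from 13694 genes other than the members. For Dsg1a these were the kallikrein Klk11 (Pearson's r = 0.956) and the chloride channel regulators Clca3a1 (0.955) and Clca3a2 (0.945), for Dsg1b Fam126a (0.959), the cytokine receptor subunit Il6st (0.955) and Klk9 (0.949), and for Dsg1c Scgb2b3 (0.967), Atp10a (0.966) and the transcription factor Bhlhe40 (0.950). Dsg2 was followed by 1700025G04Rik (0.947), the chemokine receptor Ackr3 (0.941) and Arhgdib (0.937). Dsg3 was followed by the collagen receptor Ddr1 (0.924), the amino acid transporter Slc38a2 (0.923) and Gm6277 (0.922), and Dsc3 by Dpm1 (0.924), Fam241b (0.908) and Stx4a (0.903). Values were lower for the dim genes, with Endou (0.906) first for Dsc2, Nectin3 (0.896), an adhesion molecule of the adherens junction, for Dsc1, and Cyp2c55 (0.822) for Dsg4. No gene stood first for more than 1 cadherin. These are the highest values among 13694 genes, over arrays that share slides, populations and scaling, so they only describe these arrays. Any gene that differs between epidermis and HFSCs can score high with a cadherin that does so too, and closer ties were not tested. For Dsc2 and Dsg4, well above background on 6 and 7 of 12 arrays, the values also rest on undetected levels.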

How the data were processed

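Each of the 12 groups was 1 array. The spot intensity values deposited by the authors came, per the file headers, from Agilent Feature Extraction 10.7.3.1, with flags for spots well above background. The authors' deposited value table holds log2 values; each of its columns followed the scanner values centred on each probe's median, its column medians lay between -0.20 and 0.16, and how it was made is not given in the sources used here. It served as an alternative. Here control spots and outliers were dropped and no spot was saturated. Log2 processed intensities were set relative to the 75th percentile of their array, and spots of 1 probe were averaged. RefSeq accessions named 28026 of 55681 probes, and the others kept the files' names. Coordinates are on mm9. All sample columns were used (0 were left over). Sequences are not reported here.

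Fits used limma 3.58.1 in R 4.3.3 (package data.table, version 1.17.8) with Benjamini-Hochberg adjustment over all genes tested, at 0.05. A gene entered a fit if 2 or more of its arrays were well above background. With no replicate arrays, spread came from matched pairs in additive fits of mouse type and plucking (8 HFSC arrays, 3 residual degrees of freedom), of population and age (6 unplucked arrays, 2 residual) and of age and population (4 epidermis arrays, 1 residual); each interaction left 2. SE are moderated and 95% intervals unadjusted. "At least N-fold" is a bound, taken where the dimmer group was not well above background, against the higher of the dimmest detected probe on that array and the probe's own value. The number of arrays limits the precision.

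The members, the 15 other gene lists and the alternatives were chosen with earlier results of these data known. All members were named. Of the other lists the rule named genes past the threshold, at most 4 a list, or else the 2 largest differences in IFE and the 2 on plucking. Dsp, Jup, Ppl, Evpl, Klf4, Ivl, Tgm1, Tgm3, Krt10 and Krtdap, and values of named genes in other comparisons, were added after seeing them. Likeness was taken over RefSeq genes well above background on at least 6 arrays. Alternatives were normexp with quantile scaling, quantile and median scaling, the deposited table, the mean of all probes, other filters, slide, and arrays or pairs left out. Figures used matplotlib 3.10.9 in Python 3.11.15. The fits were tested on simulated data.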

Additional observations from a re-analysis of the deposited data

Results flagged for a closer look

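The age difference of Dsg1a ran in opposite directions in HFSCs and epidermis. In HFSCs Dsg1a was higher in aged than in young cells in both pairs, by 0.86 unplucked and 0.17 plucked, and in epidermis it was lower in aged cells in both pairs, by -0.86 in total epidermis and -0.16 in IFE. The difference between the age differences was -1.03 ± 0.51 on the log2 scale (limma, 95% interval -2.36 to 0.30, adjusted p = 0.972), so the test of the difference itself did not pass.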

How the results depend on the processing

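The 127 genes past the threshold on plucking numbered 1120 with normexp and quantile scaling, 273 with the mean of all probes, 22 without a filter on dim genes, 703 with genes well above background on all arrays, 607 with slide as a block, and 0 within slide 1, within slide 2, without the unplucked control and cKO arrays and, as a range, 0 to 0 when 1 pair was left out; no member passed under any of these. In IFE against HFSCs 1134 genes became 605 and 3 members 1 without the filter. In total epidermis 933 genes became 1422 with normexp and 327 without the filter, where 4 members became 0. Between IFE and total epidermis 0 genes became 3 (normexp), 4 (quantile), 5 (mean of probes) and 1 (all arrays). The rest concerns members that were past no threshold and whose direction turned; the cause was not tested. With the mean of all probes Dsg3 gave 0.41 in aged HFSCs and -0.14 for the age interaction, Dsg2 -0.18 in cKO and Dsg4 -0.47 in control against young. In cKO Dsg3 gave 0.09 (quantile) and 0.01 (median scaling) and Dsg4 -0.07 (quantile). Dsg1a on plucking gave -0.19 within slide 1 and, as the same estimate, without the unplucked control and cKO arrays. Other probes turned Dsg3 (A_55_P2087008: plucking 0.15, aged HFSCs 1.26, cKO 0.07, IFE 0.21, age interaction -0.77, plucking interaction 1.10; A_55_P2163003: aged HFSCs 0.19, control against young 0.50, age interaction -0.04), Dsg2 (A_52_P88091: aged HFSCs -0.02, cKO -1.27, control against young -0.70) and Dsg4 (A_55_P2028878: plucking 0.04, control against young -1.38, IFE 0.64, IFE against total epidermis 0.24, plucking interaction -0.23). With 1 pair left out the ranges were, on plucking, -0.64 to 0.12 (Dsg4) and -0.10 to 0.71 (Dsc1). In aged HFSCs they were -0.45 to 0.75 (Dsg1b), -1.11 to 0.83 (Dsg1c), -0.44 to 0.56 (Dsg2), -0.83 to 0.40 (Dsg3), -0.28 to 1.92 (Dsg4) and -0.92 to 0.44 (Dsc3). In cKO they were -0.09 to 0.17 (Dsg1a), -0.21 to 0.98 (Dsg2), -0.17 to 0.13 (Dsg3) and -0.52 to 0.60 (Dsg4). In control against young they were -0.50 to 0.81 (Dsg1b), -0.12 to 0.49 (Dsg2), -0.07 to 0.95 (Dsg4), -0.45 to 1.14 (Dsc1) and -0.21 to 0.11 (Dsc3). In IFE they were -0.37 to 0.13 (Dsc1) and -0.11 to 0.36 (Dsc3), and in total epidermis -0.70 (Dsg4, aged pair alone) and -0.03 to 0.45 (Dsc3). Leaving out a pair in IFE or total epidermis leaves no residual spread, so these are values with no test. Over all alternatives the members' differences kept direction and side of the threshold 766 times, turned 47 times, lost the threshold 7 times and gained it 3 times. The matched pairs of arrays were part of every fit. No fit with the replicate number as a block could be made, since every group is 1 array and the labels give only the number 1. Other probes and leaving out the unplucked control and cKO arrays were chosen after seeing the data. Leaving out those arrays gives the plucking estimates of slide 1 again, so it is no separate check of direction. Dsg4 and Dsc2 were well above background on 7 and 6 of 12 arrays, which limits their values.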

Other observations

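Neighbouring adhesion and protease genes were set beside the cadherins in the same fits. None of the 9 genes of the adherens junction core passed in IFE or total epidermis against HFSCs, with Afdn at 1.32 ± 0.30 (adjusted p = 0.0946) and Ctnnb1, beta-catenin, at -0.66 ± 0.27 (adjusted p = 0.281) the furthest apart in IFE. On plucking Cdh1, E-cadherin, stood at 0.43 ± 0.29 and Ctnna1 at -0.34 ± 0.27. Of 10 corneodesmosome proteases and inhibitors 9 were tested and none passed. Klk7, a protease that cleaves corneodesmosomes, gave -2.01 ± 0.40 in IFE (adjusted p = 0.072) and Tmprss13 1.72 ± 0.37 (adjusted p = 0.0867), while Klk6 (1.84 ± 0.59, adjusted p = 0.219) and Klk8 (1.45 ± 0.74, adjusted p = 0.381) were the furthest on plucking. Of 4 other desmosome and corneodesmosome genes none passed, with Cdsn, corneodesmosin, at -1.80 ± 0.67 and Kazn at 1.36 ± 0.41 in IFE, and Kazn at -1.20 ± 0.79 and Cdsn at -0.69 ± 0.26 on plucking.

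The marker lists moved as follows in IFE against HFSCs. Of 6 basal markers Ly6a (4.76 ± 0.47) and Ly6d (3.01 ± 0.29) rose. The cells were gated on SCA1, the product of Ly6a, so the rise of Ly6a is no independent result. Among HFSC markers the difference was -8.31 ± 0.44 for Lhx2, and Lgr5 and Fgf18 were at least 285-fold and 58.9-fold lower. Cd34, a sort marker, stood at -5.98 in aged IFE, where it was not well above background, and at -3.04 in young IFE. In HFSCs Cd34 stood at 5.62 in aged and 6.46 in young cells. Of 5 companion layer and inner bulge markers tested 3 fell, Krt6a (at least 74-fold), Krt6b (-2.75 ± 0.42) and Krt17 (-2.58 ± 0.27). Of 6 fibroblast markers 3 were tested in total epidermis. There 2 fell, Col1a2 at -4.69 ± 0.38 (adjusted p = 0.0198) and Col1a1 at least 4.21-fold lower (adjusted p = 0.0465), and 1 was higher without passing. Of melanocyte markers Pmel rose (2.63 ± 0.33) and Mitf fell (-3.51 ± 0.27) in IFE. No hair shaft, endothelial or Langerhans and myeloid marker passed in IFE, with Krt33a at least 2.67-fold higher, Krt71 at least 1.73-fold lower, Kdr at 0.19 ± 0.27, H2-Aa at 0.94 ± 0.95 and Cd74 at 0.41 ± 0.57. Nor did one pass on plucking, where the furthest were Tchh (-2.04 ± 1.28) and Krt27 (1.67 ± 0.92) of the hair shaft and inner root sheath, Tek (-1.73 ± 1.23) and Kdr (-0.15 ± 0.22) of endothelium, and H2-Ab1 (-0.72 ± 0.43) and Adgre1 (-0.57 ± 0.31) of Langerhans and myeloid cells. On plucking, Mitf fell by 2.84 (adjusted p = 0.0447) and was the only gene of the 15 lists past the threshold.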
